A study of Mus musculus with 34 samples.

Results

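Clca4b, Clca3b and Plet1 are 3 genes of intestinal and other epithelia that were followed here through 34 RNA-seq libraries of sorted macrophages of the mouse colon. They were selected on measured values of these same data, namely higher levels in libraries deficient in the IL-10 receptor than in controls and lower levels when IL-23 p19 was lost as well, so those comparisons are described below without a test. They are 3 of 9851 genes listed in the 3 deposited tables together, and all 3 genes have a row in each table and passed the filter on low values in each.

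CLCA proteins take their name from chloride currents that calcium activates, but they are mostly secreted or shed from the cell surface and act on channels and on mucus rather than forming a channel themselves. Clca1 is a goblet cell protein that remodels secreted mucus, and Clca4b and Clca3b are less well studied members that sit in the same gene cluster. Plet1 encodes a surface glycoprotein held by a lipid anchor, known from placenta, from epithelial progenitors and from repair of the wounded colonic epithelium, and it has also been described in intestinal dendritic cells. IL-10 restrains gut macrophages through the receptor chain encoded by Il10ra, IL-23 (p19 subunit) is a cytokine that such macrophages can release, and IL-22, which IL-23 induces in lymphocytes, acts on epithelium through STAT3.

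Per the labels, the cells came from the lamina propria of C57BL/6 mice and were CD45+ CD11b+ CD64+ with intermediate CD11c and without Ly6c or CD103. The first table compares libraries titled CXhet (n = 3) with libraries titled IL10R_colonic (n = 3), from untreated mice of 6 to 7 weeks. The rescue table holds 5 further groups of the same age: CX (n = 2), 5C5_IL10R (n = 5) and 5C5_IL10R_P19 (n = 4), all untreated, and 5C5_IL10R_abx (n = 4) and IL10R_littermate_abx (n = 3), both given antibiotics in drinking water. The neutrophil table comes from bone marrow chimeras at 4 weeks after chimerism, titled wt (n = 4), ko_igg (n = 3) and ko_ly6g (n = 3). Its treatment label gives every library, wt included, an injection of antibody to Ly6G, against the titles, which name a control immunoglobulin for ko_igg, and the titles were followed. From the series title IL10R is read as deficiency of the IL-10 receptor alpha chain, and P19 as the additional loss of IL-23 p19. The labels name no Cre driver or promoter, do not spell out CX, CXhet or 5C5, do not give the genotype of the littermates, and do not say whether the libraries in a group are from different mice, and p-values below therefore measure only the spread between these libraries.

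The deposited values are read numbers scaled by a single factor in each library, and libraries held 747046 to 4525047 reads where reads could be recovered. Il10ra, the targeted gene, was 371 to 689 in CXhet and 9.26, 65.9 and 361 in IL10R_colonic, so the library labelled IL10R_colonic 2 goes against its label, and the changes of the 3 genes, of the list genes named and of the list counts in the first table are given with and without it. In the rescue table Il10ra was 247.5 and 283.5 in CX, 138 to 191 in the antibiotic-treated littermates and at most 31.2 in the 3 groups titled 5C5_IL10R. In the neutrophil table it was 248 to 828 in wt, 77.9 to 111 in ko_igg and 32.2 to 65.1 in ko_ly6g. Il23a has no row in the rescue table, so the second deletion was not checked. Macrophage identity genes (15 or 16 of 18 listed, among them Csf1r, Cx3cr1, Adgre1 and C1qa) made up 0.603% to 3.74% of the signal of a library. Epithelial identity genes, such as Epcam, Vil1, Cdh1 and Muc2, were also present in every group, 37 of 39 being listed, and made up 0.445% to 3.53% there and 1.71% to 4.17% in the neutrophil table. The values of the 3 genes therefore stand beside those epithelial sums throughout. Dendritic cell genes, given because Plet1 is known there, were 6 of 13 listed (Flt3, Zbtb46, Xcr1 and Clec9a were not among them) and made up 0.0428% to 0.164%. In bulk samples fewer cells of a type and less RNA per cell cannot be told apart.

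The promoters of the 3 genes are shown because all 3 genes were high in the same deficient groups while lying at 2 places in the genome. Clca4b and Clca3b lie on chromosome 3 in a run of CLCA genes whose order in RefSeq is Clca3a1, Clca3a2, Clca3b, Clca4c-ps, Clca4b, Clca4a, Clca1 and Clca2, with predicted genes between some of them, and Plet1 lies on chromosome 9. The sequences are the 250 bases before each annotated start, from RefSeq with build GRCm38.p6, a later build than the mm9 named in the submitters' processing notes: Clca4b at chr3:144932530-144932779 (minus strand), Clca3b at chr3:144849303-144849552 (minus) and Plet1 at chr9:50494275-50494524 (plus). Capitals mark the motif matches named below.
Clca4b: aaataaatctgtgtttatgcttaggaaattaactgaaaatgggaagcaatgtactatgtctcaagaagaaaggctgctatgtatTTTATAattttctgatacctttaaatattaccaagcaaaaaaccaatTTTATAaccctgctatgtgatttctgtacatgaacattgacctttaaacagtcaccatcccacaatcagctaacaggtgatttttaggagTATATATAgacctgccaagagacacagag
Clca3b: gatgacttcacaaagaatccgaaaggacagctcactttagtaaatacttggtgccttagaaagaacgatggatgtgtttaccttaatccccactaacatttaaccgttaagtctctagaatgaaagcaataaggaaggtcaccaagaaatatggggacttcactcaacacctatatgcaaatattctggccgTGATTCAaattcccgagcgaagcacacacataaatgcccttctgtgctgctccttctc
Plet1: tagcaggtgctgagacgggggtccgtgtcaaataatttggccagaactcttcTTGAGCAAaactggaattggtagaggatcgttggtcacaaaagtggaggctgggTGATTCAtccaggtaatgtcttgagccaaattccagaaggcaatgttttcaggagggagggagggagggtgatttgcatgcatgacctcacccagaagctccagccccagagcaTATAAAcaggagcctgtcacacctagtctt

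The 3 windows shared no run longer than 8 bases with one another. The AP-1 motif TGANTCA begins 58 bases before the start of Clca3b and 144 bases before that of Plet1. Of 32851 promoter windows of this length, searched on both strands, 6.75% hold that pattern with any middle base. Plet1 also has TATAAA at 30 bases (in 12.4% of windows) and, on the minus strand, the C/EBP motif TTGCNNAA at 198 bases (9.56%). Clca4b has TATATA in an overlapping pair at 29 and 27 bases (5.25%) and TATAAA on the minus strand at 166 and 119 bases. The STAT motif TTCNNNGAA (7.02%), the CDX motif TTTATNG (9.81%), the TEAD motif CATTCC (12.6%) and the ETS motif GAGGAAG (10.6%) have no match in these 3 windows, which says only that these letters are not in these 250 bases.

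Reads of near-identical genes could be split or shared, since how such reads were assigned is not given in the sources used here. In GENCODE M21, 24.8% of the 50-base windows of the Clca4b transcript also occur in another gene of the same strand (21% in Clca4a and 11.3% in the pseudogene Clca4c-ps), and 5.98% of those of Clca3b (4.62% in Clca3a2 and 3.93% in Clca3a1). For Plet1, 10.3% lie in its antisense neighbour Plet1os, which no table lists. In the last 500 bases of the transcripts, 0 of 451 windows of Clca4b and of Clca3b recur in these CLCA relatives, and 0 of those of Plet1 in Plet1os.

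In the first table all 3 genes were higher in IL10R_colonic than in CXhet macrophages, Clca4b and Plet1 by over 10-fold and Clca3b by 2.46-fold. Clca4b was 402, 40.2 and 295 in IL10R_colonic libraries 1, 2 and 3 and 5.13, 12.1 and 13.9 in CXhet libraries 1, 2 and 3, the latter at 3 to 13 reads. The lowest deficient library is the one whose Il10ra goes against its label, and it still lay above all control libraries. The log2 change of Clca4b, which on this scale is that of the value plus a pseudocount, was 3.96 (SE 0.80), 15.6-fold with a 95% interval of 4.4 to 55, and it was 4.98 without the library labelled IL10R_colonic 2 and 3.34 without library 1.

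Plet1, the surface glycoprotein, was 427, 164.5 and 365 in IL10R_colonic and 22.2, 8.39 and 23.6 in CXhet, a log2 change of 4.05 (SE 0.45), 16.6-fold (8.15 to 33.8), and 4.47 without the library labelled IL10R_colonic 2. Clca3b was 1347, 587 and 1044 in IL10R_colonic and 277, 432.5 and 461.5 in CXhet, a log2 change of 1.30 (SE 0.33; fold 1.46 to 4.13), and 1.64 without that library. For each of the 3 genes the groups did not overlap and the order of the deficient libraries was 1, 3, 2 from high to low. In this comparison 8.69% of 6766 tested genes were called by limma and 16.7% were higher with groups that did not overlap, a background from which nothing is read here since the genes were chosen with this contrast known. The epithelial identity sum was 1.22% to 2.59% of signal in CXhet and 0.872% to 1.54% in IL10R_colonic, so it was not higher where the 3 genes were higher. Per 1000 of that sum, Clca4b was 0.168 to 0.294 in CXhet and 1.69 to 11 in IL10R_colonic, Clca3b 7.81 to 10.5 and 24.7 to 37, and Plet1 0.204 to 0.728 and 6.93 to 11.7, each without overlap. Of 6 tested dendritic cell genes 3 were called lower (Mgl2, Amica1 and Clec10a) and 1 higher (Ccr7), and their part in the level of Plet1 was not tested.

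**Figure D1:**
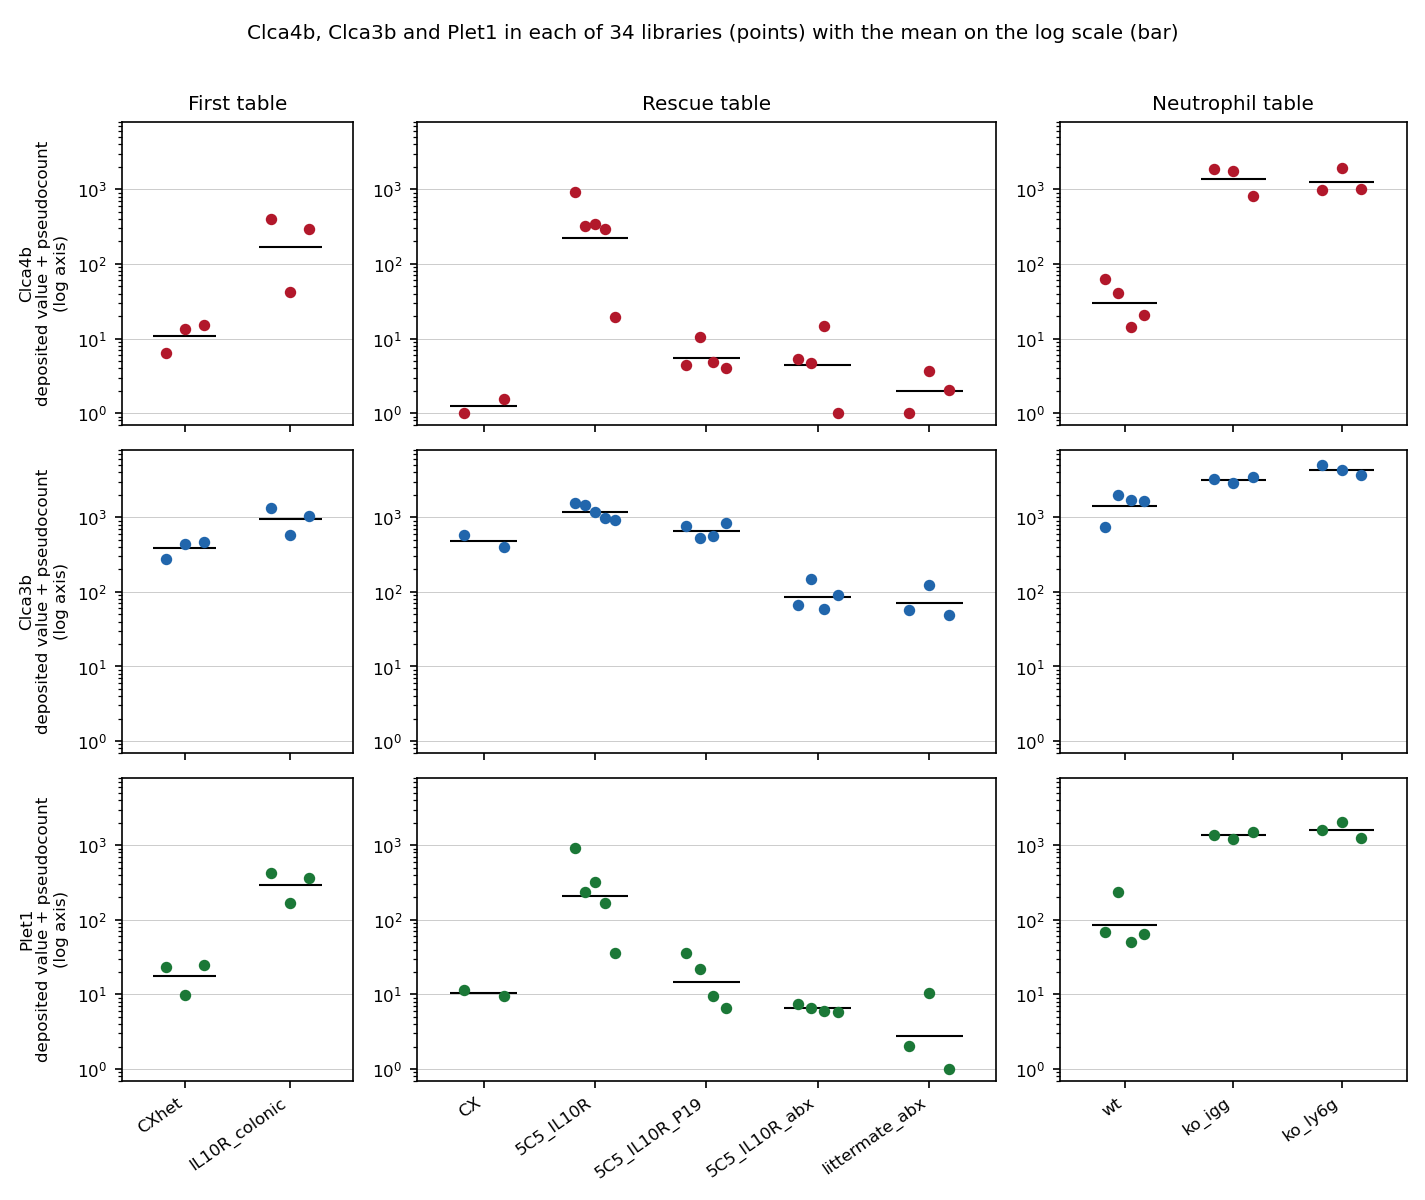
Deposited value plus the pseudocount (log axis) of Clca4b, Clca3b and Plet1 in each library (points) by group within each table, with the mean on the log scale as a bar. Clca4b and Plet1 are high in the libraries titled IL10R_colonic, 5C5_IL10R, ko_igg and ko_ly6g, with 5C5_IL10R library 68 low in both, and Clca3b differs less between groups except for its low values under antibiotics (48.5 to 147).

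Among the CLCA neighbours Clca1 moved the other way. This gene, the goblet cell member, was 518, 2765 and 4332 in CXhet and 235, 150 and 258 in IL10R_colonic, and fell by 3.13 on the log2 scale (SE 0.67, limma adjusted p = 0.0251). This call was lost without CXhet 2 (adjusted p = 0.11), CXhet 3 (0.0892), IL10R_colonic 2 (0.0592) or IL10R_colonic 3 (0.0595). Clca4a, the closest relative of Clca4b, was 6.52 to 15.4 in CXhet and 6.48 to 30.4 in IL10R_colonic, which overlap, and it did not pass the filter on low values. Clca3a1, Clca3a2 and Clca2 have no row in the first table. Of 7 other chloride channel genes tested (anoctamins, bestrophins, Cftr, Clcn and Ttyh genes), 0 were called higher and 2 lower, with a median log2 change of -0.72 beside 0.00 over all tested genes. Best2, a bestrophin channel of goblet cells, fell by 2.33 (SE 0.41, adjusted p = 0.0106), a call lost without CXhet 2 (0.0785) or CXhet 3 (0.0602).

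Other genes of epithelial injury and of the IL-22 response were counted from lists written with earlier results of these data known. Of 27 tested injury and regeneration genes 5 were called higher and 2 lower in IL10R_colonic (median -0.10 beside 0.00 over all genes), and 6 and 2 without the library labelled IL10R_colonic 2. The 5 became 3 without CXhet 2, and the 2 became 0 without any one of the CXhet libraries and 1 without IL10R_colonic 3. The stem cell antigen Ly6a, a mark of regenerating gut epithelium that immune cells also carry, rose from 512 ± 99.7 to 3981 ± 1391 (SD, n = 3 each; log2 change 2.92, limma adjusted p = 0.000964). Anxa8, an annexin of injured epithelium, rose by 1.62 (SE 0.31, adjusted p = 0.0158), which was lost without CXhet 2 (0.0612) or IL10R_colonic 3 (0.0527). Of 26 tested IL-22/STAT3 response genes 10 were called higher and 1 lower (median 1.07), and 15 and 1 of 27 without the library labelled IL10R_colonic 2, 5 and 1 of 26 without IL10R_colonic 3. Lrg1, a secreted glycoprotein induced through STAT3, rose by 6.13 (SE 0.41, adjusted p = 0.000274) and Nos2, the inducible nitric oxide synthase, by 6.69 (SE 0.47, adjusted p = 0.000354). Macrophages express Nos2 too. Without the library labelled IL10R_colonic 2 the changes of Ly6a, Anxa8, Lrg1, Nos2 and Best2 were 2.65, 1.52, 6.47, 6.21 and -1.93, all still called.

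In the rescue table values of Clca4b or Plet1 above 100 were found only in libraries of 5C5_IL10R. Clca4b was 916, 319, 346, 289 and 18.5 in 5C5_IL10R libraries 27, 32, 61, 67 and 68. It was 0 and 0.569 in CX libraries 1 and 3, which is 0 and 1 read, where 3 reads in library CX 1 would be a value of 3.11. Every 5C5_IL10R library lay above both CX libraries, with library 68 about an order of magnitude below the other 4. Summed over libraries, 1920 reads stood against 1 read, a ratio of 909 after scaling for depth with a counting interval of 163 to 3.59e+04, which covers counting error only. The log2 change of 7.49 (SE 1.24) depends on the pseudocount because CX is near 0.

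Plet1 was 917, 235, 316, 165.5 and 35.4 in the same 5 libraries of 5C5_IL10R and 10.4 and 8.54 in CX, a log2 change of 4.34 (SE 0.96), 20.3-fold (5.01 to 82). Clca3b was 1544, 1472, 1185, 964 and 906 in 5C5_IL10R and 570 and 401 in CX, a log2 change of 1.31 (SE 0.36), 2.48-fold (1.47 to 4.18). The groups did not overlap for any of the 3 genes. In this comparison 9.91% of 6612 tested genes were called and 18.8% were higher with groups that did not overlap, and again nothing is read from that background since the contrast was used for the choice. Without library 68 the log2 changes of Clca4b and Plet1 were 8.37 and 4.97. The epithelial identity sum was 2.773% to 3.526% in 5C5_IL10R and 2.739% and 2.768% in CX, which do not overlap, and 4 of 36 epithelial identity genes were called higher (Muc13, Krt20, St14 and Cdh17) and 0 lower (median 0.36 beside 0.01 over all genes). Per 1000 of that sum Clca3b was 18.6 to 38.9 and 10.3 and 14, and Plet1 0.727 to 23.1 and 0.219 and 0.255. Macrophage identity genes moved with the comparison: 12 of 16 tested were called lower in 5C5_IL10R, at 0.980% to 1.30% of signal beside 2.19% and 2.21% in CX, as were 3 of 5 dendritic cell genes (Amica1, Batf3 and Clec10a), and their part in the result was not tested.

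The 5 libraries of 5C5_IL10R differed widely among themselves in Clca4b and Plet1. The highest of them was 49.5 times the lowest for Clca4b, 25.9 times for Plet1 and 1.70 times for Clca3b. For Clca4b such a ratio could otherwise be formed in the rescue table only for P19 (3.12, at 4 to 10 reads a library). Clca4b and Plet1 had the same order of libraries, 27, 61, 32, 67 and 68 from high to low, and Clca3b had the order 27, 32, 61, 67 and 68. Clca1 had the opposite order of Clca3b, from 463 in library 27 through 1434 in library 61 to 8461 in library 68. Library 68 was thus lowest for Clca4b and Plet1 and was the only one of the 5 in which Clca1 lay above the CX libraries, at 5882 and 4092. Its Il10ra lay within the range of the other 4, 4.56 to 31.2.

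**Figure D2:**
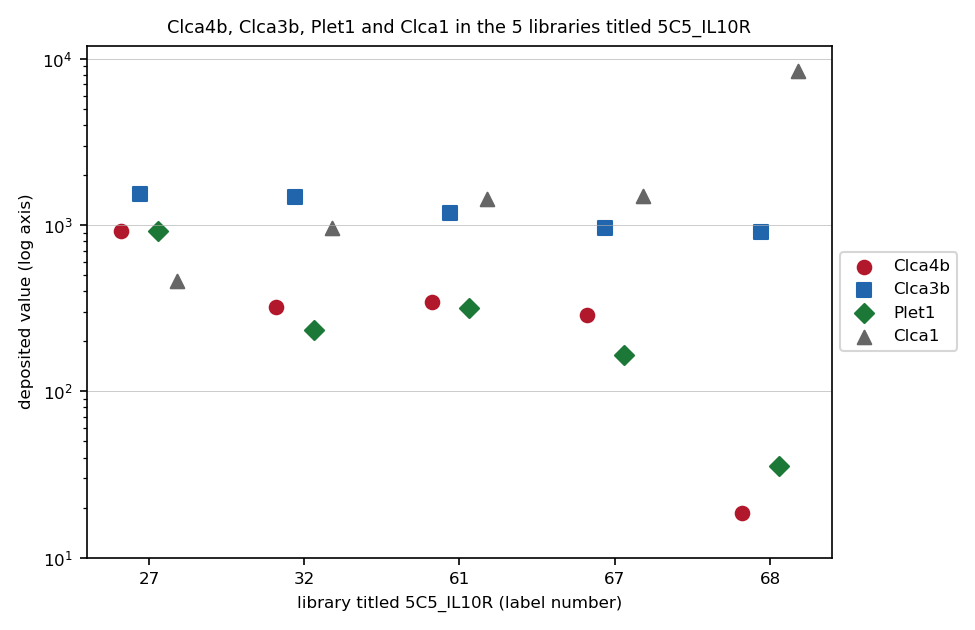
Deposited value (log axis) of Clca4b, Clca3b, Plet1 and Clca1 in the 5 libraries titled 5C5_IL10R, placed by their label number, which implies no order, with points set side by side for legibility. Clca4b and Plet1 are lowest in library 68 (18.5 and 35.4), where Clca1 is highest (8461).

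Loss of IL-23 p19 in addition went with low values of Clca4b and Plet1. In the libraries 5C5_IL10R_P19_100, P19_105, P19_106 and P19_107 Clca4b was 3.48, 9.52, 3.91 and 3.05, that is 4 to 10 reads each, and Plet1 was 34.8, 20.9, 8.46 and 5.59. Clca3b was 772, 530.0, 568.4 and 826.5. All P19 values lay below all 5C5_IL10R values for the 3 genes, though Plet1 in P19_100 (34.8) nearly reached 5C5_IL10R library 68 (35.4). The log2 change from 5C5_IL10R was -5.35 (SE 0.99) for Clca4b, -3.83 (SE 0.77) for Plet1 and -0.84 (SE 0.29) for Clca3b, and without 5C5_IL10R library 68 the first 2 were -6.23 and -4.46. This contrast was used for the choice, and 2.43% of genes were called in it and 4.57% were lower with groups that did not overlap.

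Beside CX, the 3 genes in P19 are described without a test, since this contrast was used for the choice. The log2 difference of Clca4b depends on the pseudocount because CX holds 1 read. Clca4b in P19 stood at 26 reads in 4 libraries against 1 read in 2, with no overlap, and its log2 difference was 2.15 (95% interval -0.53 to 4.82), while the ratio of reads was 12.4 with an interval of 2.04 to 509 that covers counting error only. Plet1 in P19, 5.59 to 34.8, overlapped CX (log2 difference 0.52, 95% interval -1.57 to 2.60), and so did Clca3b (0.47, -0.31 to 1.25). Both comparisons of P19 share libraries with the comparison of 5C5_IL10R and CX. Among genes tested, 0.0302% were called between P19 and CX, and 12.6% were higher with groups that did not overlap. The epithelial identity sum was 2.78% to 3.19% in P19, within the range of 5C5_IL10R. Per 1000 of it, Clca4b in P19 (0.0779 to 0.222) lay below 5C5_IL10R (0.380 to 23.1), while Clca3b (12.3 to 21.1 beside 18.6 to 38.9) and Plet1 (0.143 to 0.786 beside 0.727 to 23.1) overlapped. Of 16 macrophage identity genes 8 were called higher in P19, as were 3 of 5 dendritic cell genes, and their part in the result was not tested.

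Several genes of the IL-22 response were lower with p19 absent, in a number that depended on single libraries. Of 24 tested, 7 were called lower and 1 higher in P19 against 5C5_IL10R (median -0.79 beside 0.00 over all genes), but only 1 was called lower without P19_107, 3 without P19_106, and 4 without P19_105 or without 5C5_IL10R library 27, 32 or 61. Lrg1 fell by 4.67 (SE 0.81, limma adjusted p = 0.00903; 0.0517 without P19_107), and Dmbt1, a mucosal scavenger protein, fell by 1.94 (SE 0.34, adjusted p = 0.0107). Of 27 tested injury genes 1 was called higher and 1 lower (median -0.25). Against CX, 7 of 24 IL-22 response genes were called higher in 5C5_IL10R and 1 lower (median 1.15 beside 0.01), and 4 of 27 injury genes higher and 6 lower (median 0.14). With CX library 1 left out these counts were 2 and 0 of 25, and 1 and 0 of 27, with CX library 3 left out 4 and 0, and 1 and 2, and without 5C5_IL10R library 68 the IL-22 counts were 11 and 3 of 25. The calcium-binding protein S100a14 of epithelia rose by 1.12 (SE 0.25, adjusted p = 0.0108), a call lost without CX 1 (0.173) or CX 3 (0.0629).

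Antibiotics in the drinking water went with low values of all 3 genes in the deficient mice. Clca4b was 4.35, 3.76, 13.6 and 0 in the libraries 5C5_IL10R_abx_160, abx_161, abx_495 and abx_497, at 0 to 8 reads each. Plet1 was 6.53, 5.64, 5.09 and 4.80 at 3 to 5 reads each, and Clca3b was 65.3, 147, 57.65 and 90.3. Every one of these values lay below all 5 libraries of 5C5_IL10R for its gene. The genes were chosen for high values in these same 5C5_IL10R libraries, and Clca4b and Plet1 passed the filter on low values only through them, so the comparison is a description with no test. The log2 difference from untreated 5C5_IL10R was -5.68 (SE 0.99) for Clca4b, -5.02 (SE 0.77) for Plet1 and -3.80 (SE 0.29) for Clca3b. Over reads, Clca4b in untreated libraries was 72.9 times that in treated ones (counting interval 41.7 to 141). Without 5C5_IL10R library 68 the log2 changes of Clca4b and Plet1 were -6.56 and -5.66, and without abx_497 that of Clca4b was -4.97.

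That comparison moved most genes: 57.8% of 6612 were called, 27.3% as lower, and 19.5% were lower with groups that did not overlap, a background from which nothing is read for the 3 genes. Epithelial identity genes moved with it: 36 of 36 tested were called lower (median -2.09 beside 0.03 over all genes), and their sum was 0.516% to 0.810% of signal in the treated libraries beside 2.77% to 3.53%. Of 16 macrophage identity genes 15 were called higher. Per 1000 of the epithelial sum Clca3b was 6.03 to 11 under antibiotics and 18.6 to 38.9 without, and Plet1 0.422 to 0.662 and 0.727 to 23.1, neither overlapping. Clca4b on this scale, 0 to 1.77 and 0.380 to 23.1, overlapped. The part of the macrophage genes was not tested.

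**Figure D3:**
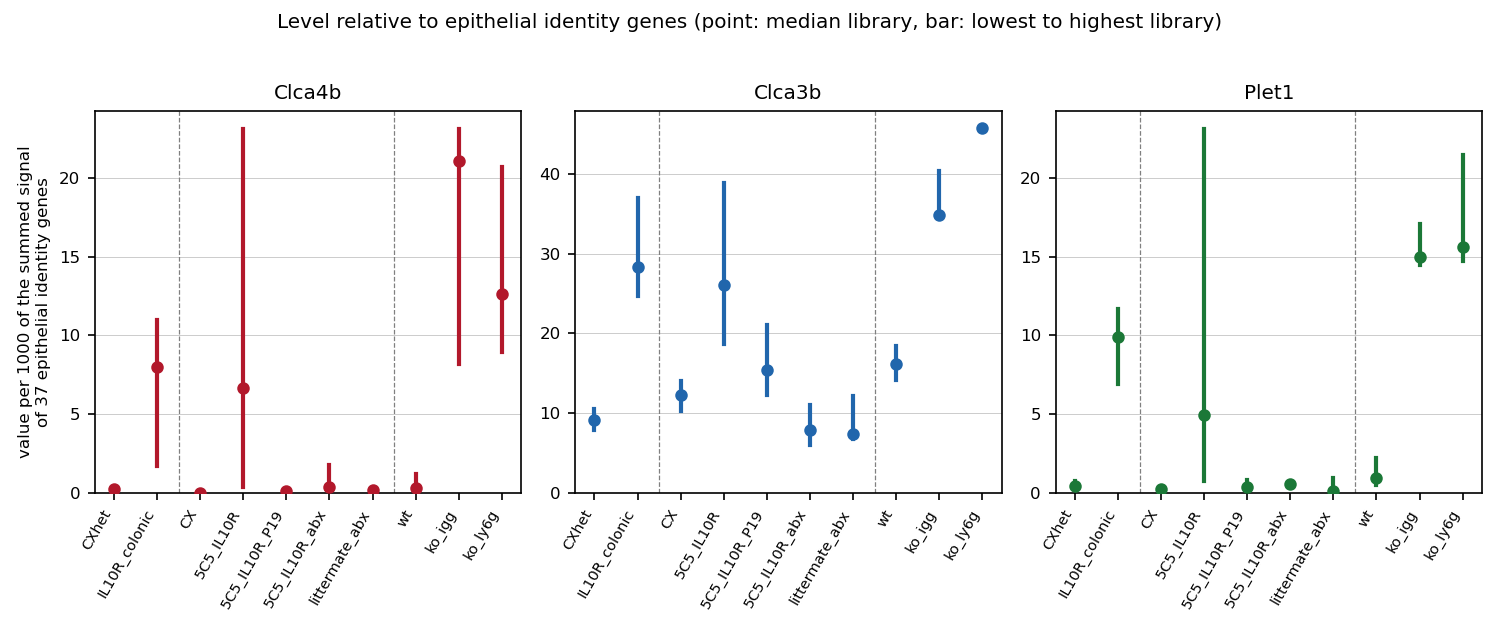
Value of Clca4b, Clca3b and Plet1 per 1000 of the summed value of 37 epithelial identity genes, by group (point, median library; bar, lowest to highest library; dashed lines part the 3 tables). Relative to that sum, Clca3b is 6.03 to 12.1 in both antibiotic groups and 18.6 to 38.9 in 5C5_IL10R.

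In the antibiotic-treated littermates, which differ from CX in title as well as in treatment, Clca3b was low too. It was 56.8, 125 and 48.5 in the libraries IL10R_littermate_abx_490, abx_491 and abx_496, below both CX libraries. The difference from CX was -2.75 on the log2 scale (SE 0.39). In this comparison 34% of genes were called, 17.5% as lower, and 29.1% were lower with groups that did not overlap. Epithelial identity genes moved here as well, 35 of 36 being called lower (median -2.15 beside 0.04), and Clca3b per 1000 of their sum was 6.79 to 12.1 in the littermates and 10.3 and 14 in CX, which overlap. Plet1 was 1.03, 9.48 and 0 in the littermates, at 0 to 7 reads, and differed from CX by -1.91 (SE 1.05). Without littermate_abx_491 this was -2.87, and without littermate_abx_496 it was -1.17. Plet1 passed the filter on low values only through 5C5_IL10R. Clca4b was 0, 2.71 and 1.05 there, 3 reads in 3 libraries, so that no fold is given against CX. The CX libraries also stand in comparisons used for the choice, so no test of the 3 genes is given here.

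Between the 2 antibiotic groups, the only comparison that shares no library with those used to choose the genes, no difference was called for Clca3b (0.26, 95% interval -0.43 to 0.95, limma adjusted p = 0.724). Clca4b and Plet1 passed the filter on low values only through 5C5_IL10R, so their differences are given without a test. Clca4b differed by 1.16 (95% interval -1.20 to 3.52), with 12 reads in 4 deficient libraries against 3 in 3 littermate libraries, a ratio of 4.05 (counting interval 1.09 to 22.4). Plet1 differed by 1.23 (-0.61 to 3.07). All groups overlapped, 0.0302% of genes were called, 7.86% had groups that did not overlap, and at these read counts the intervals of Clca4b and Plet1 reach 11.5-fold and 8.39-fold. Leaving out abx_497 gave 1.87 for Clca4b, and leaving out littermate_abx_491 or littermate_abx_496 gave 2.19 or 0.49 for Plet1. The log2 change of abx against 5C5_IL10R minus that of littermates against CX was -6.33 for Clca4b (SE 1.67), -3.11 for Plet1 (SE 1.30) and -1.05 for Clca3b (SE 0.48), given without a test because it holds the contrast of 5C5_IL10R with CX. Clca4b had 3 reads in the littermates and 1 in CX, so a fall could not be seen there and its value depends on the pseudocount. Plet1 had 8 and 25 reads in these groups, also near the floor.

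The antibiotic-treated and the p19-deficient groups are compared without a test, since the P19 libraries were used for the choice. Between 5C5_IL10R_abx and 5C5_IL10R_P19, Clca3b differed by -2.96 (SE 0.30), with no overlap. Here 48.3% of genes were called, 22.4% as lower, and 19.1% were lower with groups that did not overlap. Clca4b differed by -0.33 (95% interval -2.52 to 1.85), with a sign that changes when abx_497 is left out (0.38). Plet1 differed by -1.20 (-2.90 to 0.51). Clca4b stood at 0 to 8 reads in abx and 4 to 10 in P19, and Plet1 at 3 to 5 and 11 to 40. Both passed the filter on low values only through 5C5_IL10R, so a difference in them could hardly be seen. All 36 tested epithelial identity genes were called lower under antibiotics (median -1.89), and Clca3b per 1000 of their sum was 6.03 to 11 beside 12.3 to 21.1 in P19. By mean value the order of the groups for Clca4b was 5C5_IL10R (378), abx (5.42), P19 (4.99), littermate abx (1.25) and CX (0.285), where abx (0 to 13.6) overlaps P19, littermate abx and CX, littermate abx overlaps CX, and P19 does not overlap littermate abx or CX. For Plet1 it was 5C5_IL10R (334), P19 (17.4), CX (9.45), abx (5.52) and littermate abx (3.51), where each group after the first overlaps at least 1 neighbour. For Clca3b it was 5C5_IL10R (1214), P19 (674), CX (486), abx (90.0) and littermate abx (76.6), where P19 overlaps CX and the 2 antibiotic groups overlap.

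Most of the chloride channel genes tested were lower under antibiotics, as epithelial identity genes were. Of 7 tested chloride channel genes 5 were called lower and 2 higher in each of the 3 comparisons of antibiotic with untreated groups, with medians of -1.68, -1.59 and -1.38. Ano9, an anoctamin of epithelia, fell by 2.61 against 5C5_IL10R (SE 0.24, limma adjusted p = 3.23e-08), by 2.25 against P19 (adjusted p = 1.12e-06) and, in littermates against CX, by 2.04 (adjusted p = 0.000102). Clca1 fell by 2.00 in abx against 5C5_IL10R (SE 0.57, adjusted p = 0.00644), with groups that overlap, by 3.92 in littermates against CX (SE 0.78, adjusted p = 0.00108) and by 3.88 in abx against P19 (SE 0.60, adjusted p = 6.39e-05). Of 24 IL-22 response genes 14 were called lower and 3 higher in abx against 5C5_IL10R (median -1.83 beside 0.03 over all genes, of which 57.8% were called), Dmbt1 falling by 3.29 (SE 0.34, adjusted p = 3.56e-07). Of the same 24 genes 8 were called higher and 7 lower in littermates against CX (median 0.60), with 3 higher without CX 1 and 4 without CX 3, and 6 higher and 7 lower in abx against P19 (median 0.26), beside 0.04 over all genes in each. In these comparisons 9 and 14 of 16 macrophage identity genes were called higher, and 35 and 36 of 36 epithelial identity genes lower. Which cells the called list genes came from was not tested. Of 27 injury genes 13 were called lower and 6 higher in abx against 5C5_IL10R (median -0.44), S100a14 falling by 2.92 (SE 0.20, adjusted p = 2.25e-09), 11 lower and 7 higher in abx against P19 (median -0.52), and 11 lower and 3 higher in littermates against CX (median -0.56). The last counts were 6 and 3 without CX 1, 7 and 1 without CX 3 and 10 and 5 without littermate_abx_496.

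In the bone marrow chimeras Clca4b and Plet1 were again high in both knockout groups. Clca4b was 1868, 1785 and 815 in ko_igg libraries 14, 16 and 18 and 62.5, 40.3, 13.5 and 19.9 in wt libraries 1 to 4. Plet1 was 1385, 1224 and 1498 in ko_igg and 68.5, 238, 50.2 and 64.0 in wt, where library 2 stands apart. Clca3b was 3268, 2914 and 3466 in ko_igg and 738, 1973, 1702 and 1671 in wt. None of the groups overlapped, and the log2 changes were 5.55 (SE 0.50), 3.99 (SE 0.44) and 1.17 (SE 0.31) for Clca4b, Plet1 and Clca3b. This contrast was used for the choice, 9.19% of 6594 genes were called in it, and 17.1% were higher with groups that did not overlap.

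The ko_ly6g libraries were not among those used for the choice and gave Clca4b at 972, 1950 and 1022, Plet1 at 1599, 2023 and 1266 and Clca3b at 4990, 4322 and 3704 in libraries 5, 6 and 7. All of these lay above all wt libraries. The differences from wt are given without a test, since the genes were chosen for low values in these same wt libraries. Clca4b also passed the filter on low values only through the knockout groups. Against wt, Clca4b was higher by 5.39 (SE 0.50), 41.8-fold (19.4 to 90.2). Plet1 was higher by 4.22 (SE 0.44), 18.6-fold (9.43 to 36.6), and Clca3b by 1.59 (SE 0.31), 3.02-fold (1.88 to 4.85). In this comparison 4.34% of genes were called, 2.99% as higher, and 13.8% were higher with groups that did not overlap. The wt libraries are the low group of the comparison used for the choice, so nothing is read from the count of the 3 genes beside that share. Without ko_ly6g library 5, 6 or 7 the change of Clca3b was 1.49, 1.59 or 1.70.

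Between the 2 knockout groups the 3 genes are described without a test. Clca4b differed by -0.16 (95% interval -1.35 to 1.02) in ko_ly6g against ko_igg, Plet1 by 0.23 (-0.82 to 1.27) and Clca3b by 0.43 (-0.31 to 1.16). Of all 6594 genes limma called 0 (0%), with 127 at an unadjusted p under 0.05, and edgeR and DESeq2 called 0, with 69 and 100. The 127 lie below the share of 0.05 that chance alone would give. The absence of calls is therefore not read as likeness of the groups. Clca3b was the only one of the 3 whose groups did not overlap, its ko_ly6g libraries all lying above ko_igg, as 3.58% of genes did. The ko_igg libraries also stand in the comparison used for the choice, so no test of the 3 genes is given here. The intervals allow a change of Clca4b between 0.393-fold and 2.03-fold.

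**Figure D4:**
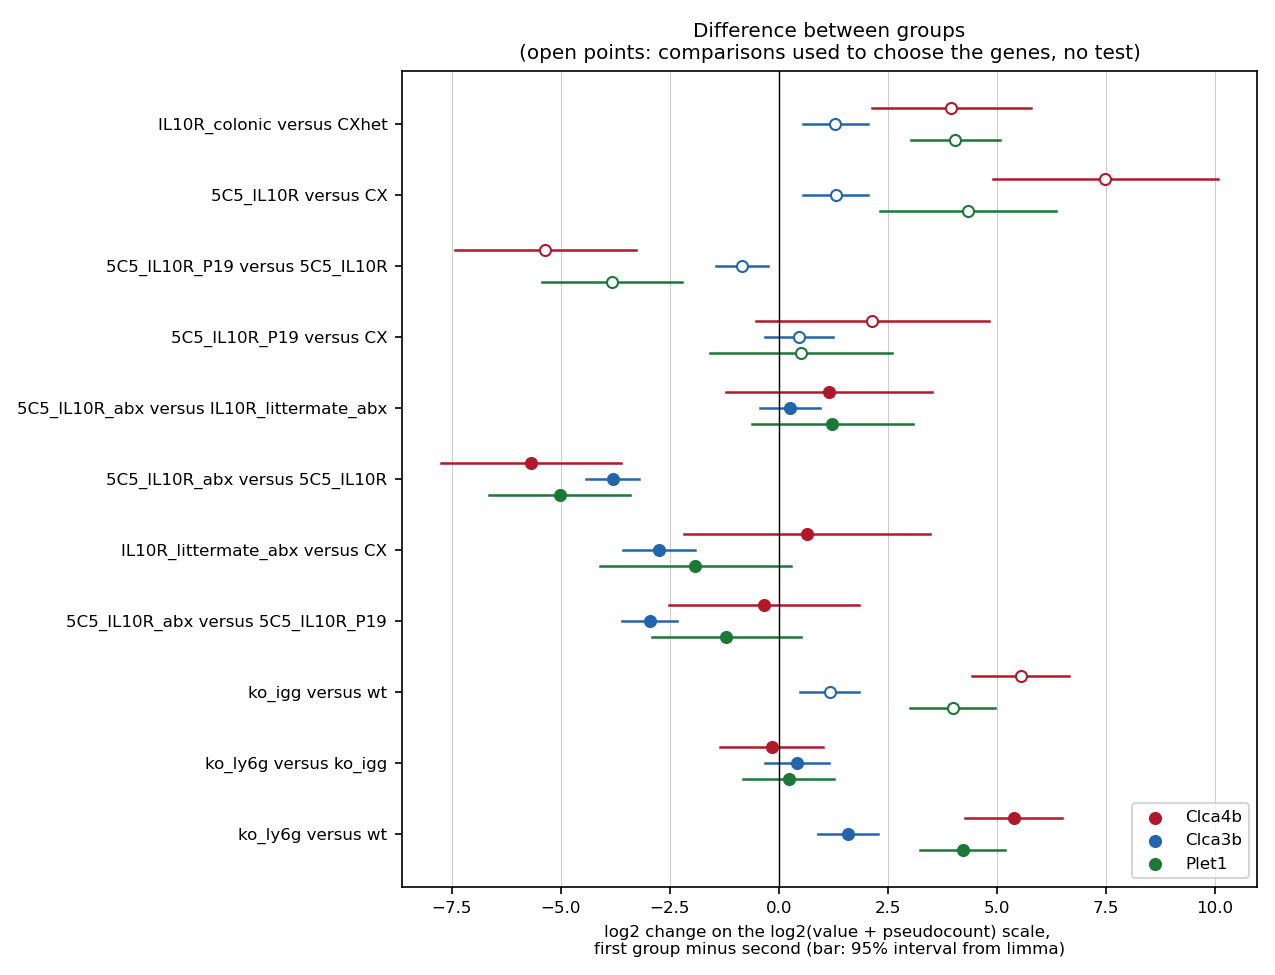
Log2 change of Clca4b, Clca3b and Plet1 (points) with the 95% interval from limma (bars) in 11 comparisons, first group minus second, on the log2(value + pseudocount) scale. Open points are comparisons whose results were known when the genes were chosen. Filled points are the other comparisons, and filled does not mean tested. Among them a test is given only for Clca3b between the antibiotic groups. All filled comparisons but that of the antibiotic groups share a group with open ones. The changes of ko_ly6g against ko_igg lie between -0.16 and 0.43.

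Epithelial identity genes took 3.08% to 3.60% of signal in ko_igg, 3.05% to 4.04% in ko_ly6g and 1.71% to 4.17% in wt, and of 36 tested 1 was called higher and 2 lower in ko_ly6g against wt. Per 1000 of their sum, Clca4b was 8.19 to 23.1 in ko_igg, 8.92 to 20.7 in ko_ly6g and 0.129 to 1.19 in wt. Clca3b was 34.5 to 40.4, 45.5 to 45.9 and 14.1 to 18.4, so that the 3 groups parted on this scale, and Plet1 was 14.5 to 17.1, 14.7 to 21.5 and 0.481 to 2.22. Of 15 tested macrophage identity genes 3 were called lower and 0 higher in ko_ly6g against wt, at 0.603% to 1.44% of signal beside 1.25% to 3.49%. Neutrophil genes, of which 5 were tested, had 2 called higher there, G0s2 and S100a9, and their part in the result was not tested.

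Clca1 was lower in the knockout groups of the chimeras. In the rescue table its difference between 5C5_IL10R and CX (-1.69, SE 0.71, limma adjusted p = 0.14) was not called and the groups overlapped. In the chimeras it was 2429, 3835, 4117 and 4077 in wt, 189.5, 232 and 486 in ko_igg and 653, 556 and 392 in ko_ly6g, and fell by 3.67 in ko_igg (SE 0.33, limma adjusted p = 0.000174) and fell by 2.76 in ko_ly6g against wt (SE 0.33, adjusted p = 0.00165). Clca4a was 20.8 to 137 in wt, 62.6 to 204 in ko_igg and 61 to 263 in ko_ly6g, groups that overlap. Clca3a2, listed in this table and in the rescue table, was 8.93 to 25.1 in wt, 18.2 to 67.7 in ko_igg and 24.5 to 94.6 in ko_ly6g. In the rescue table it was 17.7 to 38.4 in 5C5_IL10R and 7.97 and 15.5 in CX, and Clca3a1, listed only there, was 7.24 to 42.9 and 4.56 and 6.21. Both thus lay above CX in all 5 libraries of 5C5_IL10R, at 9 to 43 reads a library, and neither passed the filter on low values there.

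A part of the IL-22 and injury lists rose in the chimeras. Of 34 tested IL-22 response genes 15 were called higher and 1 lower in ko_ly6g against wt (median 1.42 beside 0.06 over all genes), and 9 without wt 4 or without ko_ly6g 6. Lrg1 rose by 6.89 (SE 0.35, limma adjusted p = 7.49e-06) and Lcn2, which binds bacterial siderophores, by 5.78 (SE 0.44, adjusted p = 0.000122). Of 30 tested injury genes 6 were called higher and 1 lower (median 0.43), and 10 and 1 in ko_igg against wt (median 0.74), with 6 higher without ko_igg 14. Sprr2h, a cornified envelope protein, rose from 5.15 ± 3.72 in wt (SD, n = 4) to 244 ± 164 in ko_ly6g (SD, n = 3), by 5.31 (SE 0.54, adjusted p = 0.000528), and by 5.48 in ko_igg (adjusted p = 0.000272). Anxa8 rose by 1.98 (SE 0.20, adjusted p = 0.000514) in ko_ly6g and by 2.02 in ko_igg (adjusted p = 0.000268).

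The genes most alike each of the 3 were found by the Pearson correlation of log2 values over all libraries of a table, as a description, since libraries of a group share their treatment and points of all genes share depth. Over the 18 rescue libraries Clca4b was most like Lrg1 (r = 0.935), Reg3g (0.925), Nos2 (0.924), Reg3b (0.922) and Cxcl5 (0.918), with Plet1 at rank 7 (0.904) of 6463 genes. Plet1 was most like Dmbt1 (0.952), Prr13, Trim40, Cd38 and Tac1 (0.921), with Clca4b at rank 9. Clca3b was most like Ano9 (0.989), Cd177, B3galt5, Ndufb6 and Mapk13 (0.980), with Clca4b at rank 1627 (0.630).

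Over the 10 neutrophil table libraries Clca4b was most like Mfsd2a (r = 0.996), Slpi, Sprr2h, Xdh and Ripk3 (0.980), and Plet1 was most like Reg3b (0.979), Lrg1, Gch1, Reg3g and Sprr2h (0.976). Clca3b was most like Tmem54 (0.983), an epithelial membrane protein, then Gna14, Gramd3, Igsf5 and Slc51b (0.968). Over the 6 libraries of the first table, Clca4b was most like Birc2 (0.993), Tac1, Clca3b (0.988), Tmc5 and Reg3g. Plet1 there was most like Pcgf5 (0.988), Ttc1, Ppfia4, Gbp9 and Sh2d1b1, and Clca3b most like B4galt1 (0.991), Cd177, Clca4b, Ly6g and Ckb. After the group means were taken away, which leaves only the spread within groups, Clca4b in the rescue table was most like Cxcl5 (0.914), a neutrophil-attracting chemokine, then Trim40 (0.875) and Ep400 (0.838), with Plet1 at rank 24 (0.678) and Clca3b at rank 1919 (0.153). Plet1 was then most like Pkp3 (0.803), Cxcl5 (0.802) and Tinagl1 (0.802).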

How the data were processed

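RNA-seq of sorted colonic macrophages was analysed in 34 libraries of 10 groups. Tools named per the submitters' processing notes are HOMER, HISAT 0.1.6 and bcl2fastq, with build mm9, in roles not given in the sources used here; how strand and reads matching more than 1 gene were handled is likewise not given. Per the labels' protocols, RNA was captured with oligo(dT), amplified by in vitro transcription and fragmented. The deposited values are signal values normalized by the authors: read numbers scaled by a single factor in each library, as seen from the values, which were whole multiples of 1 read within 0.01 read for 100% of values in 32 libraries; for ko_igg 16 and wt 3 reads were not recovered. Tables were normalized separately and hold only listed genes, so tests stay within a table and a change of all genes at once cannot be seen. Rows with no gene name (15399 and 15605 in the first and rescue table) are empty or repeat library names and hold no value.

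Tests used log2 of the value plus a pseudocount (1.31, 0.997 and 0.982 for the first, rescue and neutrophil table), a scale on which low genes change by less. Genes with a mean in the lower quartile (up to 53.2, 40.4 and 68) were removed. Each table was fitted once with limma 3.58.1 in R 4.3.3 (trend and robust, all its groups together), with Benjamini-Hochberg adjustment over all tested genes and a threshold of 0.05. Alternatives were other pseudocounts, no filter, quantile normalization, edgeR 4.0.16 (quasi-likelihood) and DESeq2 1.42.0 on recovered reads, a replicate block, and each library left out; the code was tested on simulated data with known changes beforehand. Counts of called list genes with a library left out were added after the data were seen. The 3 genes and the gene lists were chosen with earlier results of these data known. Named besides the 3 were list genes called by limma whose groups do not overlap, at most 4 per list and comparison by smallest adjusted p, of which a part is printed, CLCA genes with their values, and the 5 genes most alike (3 after removal of group means). Clca1 in 5C5_IL10R, Clca4a, Clca3a1, Clca3a2, G0s2 and S100a9 fall outside that rule and were named after their values were seen. Intervals of read ratios are exact binomial intervals at 95% and cover counting error only.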

Additional observations from a re-analysis of the deposited data

Results flagged for a closer look

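In 27 combinations of gene and group with 4 to 10 libraries, 5 held a library whose gap to its nearest neighbour was above the 95% critical value of Dixon's test. The values were not logged and the combinations share libraries, so no rate by chance is given and the flags are a description. Clca4b in library 5C5_IL10R_P19_105 was 9.515 and the other 3 libraries 3.05 to 3.91, at 10 reads beside 4 to 6. Clca1 in 5C5_IL10R library 68 was 8461, above the other 4, in the library where Clca4b and Plet1 were lowest. Clca4a in 5C5_IL10R library 27 was 65.02, in the library where Clca4b, Clca3b and Plet1 were highest. Plet1 in wt library 2 was 238.3, above the other 3 wt libraries and below all knockout libraries. Clca1 in wt library 1 was 2429, below the other 3 wt libraries, in the library whose Clca3b (738) was also the lowest of its group.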

How the results depend on the processing

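Of the alternative values for Clca4b, Clca3b and Plet1, 415 stayed the same, 8 reversed and 4 moved by more than the spread between libraries. In the comparisons used for the choice, the same means a move smaller than that spread, with no threshold. In the others it means the same direction and the same side of an adjusted p of 0.05. There 4 values went above that threshold and 1 went below it. Nothing is read from such crossings where no test is given above. The reversed ones all belong to differences that were not called, and for those below the cause was not tested unless given. The change of Clca4b in 5C5_IL10R against CX, where CX holds 1 read, was 5.77 with the pseudocount times 4, 9.58 in edgeR and 10.00 in DESeq2, and that in P19 against CX was 3.75 in DESeq2. Clca4b in abx against P19 was 0.58 after quantile normalization, 0.08 in DESeq2 and -0.91 to 0.38 with 1 library left out. With 1 library left out, Clca3b between the antibiotic groups ranged from -0.01 to 0.67 (one value, without littermate_abx_496, was -0.0017), Clca4b in ko_ly6g against ko_igg from -0.55 to 0.05, and Plet1 in littermates against CX from -2.87 to -1.17. Clca3b in ko_ly6g against wt was 1.53 in edgeR, which had fewer libraries, and 1.28 to 1.75 with 1 left out.

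Counts of called genes moved more than the changes of the 3 genes. With 1 library left out they ranged from 201 to 592 for the first table (588 with all; 1169 in DESeq2), 20 to 746 for 5C5_IL10R against CX (655; 1241 in DESeq2; lowest without CX 1, 94 without CX 3), 17 to 380 for P19 against 5C5_IL10R (2.43% of genes with all; 261 after quantile normalization, 353 in edgeR, 562 in DESeq2), 0 to 2 for P19 against CX (2; 4 in edgeR, 13 in DESeq2), 2 to 385 between the antibiotic groups (2; 50 in DESeq2; highest without abx_497), 1325 to 2072 for littermates against CX (2250), 205 to 1046 for ko_igg against wt (606; 80 in edgeR) and 103 to 494 for ko_ly6g against wt (286; 74 in edgeR, 529 in DESeq2). The share of calls that were higher in P19 against 5C5_IL10R was 78.9%, and 66.3%, 60.6% and 55.3% after quantile normalization, in edgeR and in DESeq2. Of 25 list gene results named, 0 reversed under any alternative and 11 values lost their call, all with 1 library left out.

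Replicate numbers 1 to 3 recur in both groups of the first table, but the correlations of deviations of same-numbered libraries were -0.058, 0.151 and 0.354 and do not pair them. With the replicate block the changes were 3.96, 1.30 and 4.05 and 808 genes were called. No paired analysis was possible in the other tables because their groups share fewer than 2 numbers. Depth limits Clca4b and Plet1 in CX, P19 and both antibiotic groups, at 0 to 40 reads a library.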
